A study of Mus musculus with 4 samples.

Results

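The 10 genes described here encode the transforming growth factor beta (TGF-beta) ligands, their receptors and the latent TGF-beta binding proteins. They were taken by symbol from the expression tables: the ligands Tgfb1, Tgfb2 and Tgfb3, the receptors Tgfbr1, Tgfbr2 and Tgfbr3, and the binding proteins Ltbp1, Ltbp2, Ltbp3 and Ltbp4. All 10 were present among 23990 genes, each listed once. The study sequenced RNA of sorted alveolar type 1 (AT1) cells, the flat gas-exchange cells of the lung, to compare cells carrying a Sox2 transgene with control cells. All 4 libraries came from postnatal day 3 or 4 mice of a mixed B6 and 129 background that carried Scnn1a-Cre. Per the labels, the 2 libraries called Sox2 had the genotype Scnn1a-Cre; Rosa[Sox2/+], and the 2 labelled control had Scnn1a-Cre; Rosa[mTmG/+], a membrane reporter in place of the transgene. Cre follows the Scnn1a gene, a sodium channel subunit gene of epithelial cells, and the marker used to gate the sort is not given in the sources used here.

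TGF-beta ligands are made with a propeptide that stays attached after cleavage and keeps the growth factor inactive. LTBP1, LTBP3 and LTBP4 bind this latent complex and tie it to the extracellular matrix, whereas LTBP2 is a matrix protein of the same family that does not bind latent TGF-beta. Integrins and proteases release the ligand, which then joins the type II receptor TGFBR2 and the type I receptor TGFBR1. TGFBR1 phosphorylates SMAD2 and SMAD3, which act on genes with SMAD4. In the lung the pathway is known for its part in branching, in alveolar septation and matrix deposition, and in the change of epithelial cells towards mesenchymal features.

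Sox2 went against the labels. It stood at 1.41 and 1.99 FPKM (fragments scaled for transcript length and library size) in the Sox2-labelled libraries, and at 302 and 477 FPKM in the control-labelled pair. All directions below follow the labels as deposited, so "higher in the Sox2-labelled libraries" means higher where the Sox2 RNA itself was low. Whether the labels were exchanged between the groups cannot be told from these tables. Read counts were not used here and absolute depth is unknown. As a guide, the deposited bounds had a median half-width of 7.81% to 12.4% of the value per library for genes of at least 1 FPKM, and of 5.99% (2.81% to 26.9%) over the 40 values of the 10 genes. Whether the libraries of a group are separate animals is not in the labels, so a p-value here reflects library-to-library spread, which may be technical. That spread is drawn in part from all tested genes. A difference in a bulk library cannot tell fewer cells of a type from less RNA per cell.

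Of the 10 genes, all of which reached the minimum mean of 1 FPKM for testing, 3 rose in the Sox2-labelled libraries, 1 fell and 6 did not pass. Tgfb2, Ltbp3 and Ltbp2 were the genes that rose, and Ltbp1 was the gene that fell. Across all 12040 tested genes, 4.2% were called higher and 8.11% lower at an adjusted p under 0.05 in limma, so a single lower gene among 10 lies near the background. The groups did not overlap in 6 of the 10 genes with the Sox2-labelled libraries above, against 15.7% of all tested genes, and in 2 of 10 with the control-labelled libraries above, against 42.5%. The median log2 difference, labelled Sox2 minus labelled control on log2(FPKM + 1), was 0.74 for the 10 genes and -0.29 for all tested genes. Median-of-ratios rescaling moves the latter to 0.00. On rescaled values the groups did not overlap in 7 of the 10 genes with the Sox2-labelled libraries above (31.1% of all tested genes) and in 1 with the control-labelled libraries above (31.5%). With rescaled values 5 of the 10 rose and none fell in limma (8.01% and 5.7% of all tested genes), Tgfb1 and Tgfbr2 being added and Ltbp1 lost. With quantile normalization 5 rose and 1 fell (8.14% and 6.87%). At an unadjusted p under 0.05 in limma there were 5 of the 10 upward and 2 downward. Of all 12040 tested genes, 1020 were upward and 2538 downward (29.6% in either direction), so 2 of 10 downward lies near the background. With no filter on low values none of the 10 passed, and of all 18390 genes then tested 0 were called higher and 3 lower.

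Calls also moved with single libraries. Without Sox2-labelled replicate 1, 1 of the 10 genes rose and 0 fell (1.44% and 3.5% of all tested genes), and without Sox2-labelled replicate 2 likewise 1 and 0 (0.988% and 0.955%). Leaving out control-labelled replicate 1 gave 4 and 1 (6.95% and 7.37%), and leaving out control-labelled replicate 2 gave 2 and 2 (3.31% and 10.9%). A model with the replicate number as a block gave 4 and 1 (9.49% and 22.7%).

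**Figure D1:**
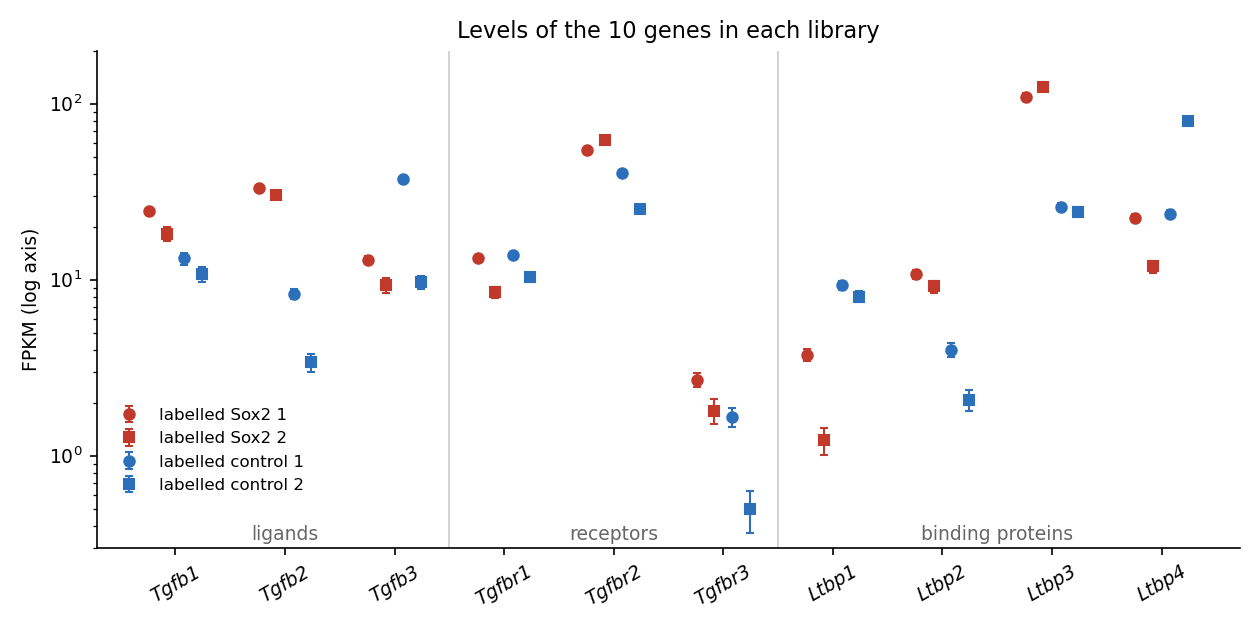
FPKM (log axis) of the 10 genes in each library, labelled Sox2 in red and labelled control in blue, with circles for replicate 1, squares for replicate 2 and bars for the deposited lower and upper bounds. Tgfb2, Ltbp2 and Ltbp3 lie higher in both Sox2-labelled libraries, Ltbp1 lies lower, and Tgfb3 and Ltbp4 are spread widely between the control-labelled libraries.

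The upstream sequences of the 4 genes that passed are shown to place their start sites and to let the reader compare what lies before them. Each is the 250 bases before a transcript start in RefSeq on GRCm38.p6, the assembly that mm10 names, written 5′ to 3′ on the gene's strand. Capitals mark any match, on either strand, to 8 short letter strings. They are the SOX-type ACAAAG and ACAATG, the SMAD-type CAGACA and GTCTAGAC, the TEAD-type GGAATG, the AP-1-type TGANTCA, the SP/KLF-type GGGCGG and the TATA-type TATAAA. Ltbp1 has 2 start sites in the expression tables, and the first in the direction of transcription is shown.
Tgfb2, chr1:186705990-186706239, minus strand: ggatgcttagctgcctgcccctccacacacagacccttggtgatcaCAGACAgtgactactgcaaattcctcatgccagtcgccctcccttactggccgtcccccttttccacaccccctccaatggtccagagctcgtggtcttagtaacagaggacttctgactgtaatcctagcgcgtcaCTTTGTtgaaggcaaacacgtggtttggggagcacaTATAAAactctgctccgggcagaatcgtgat
Ltbp3, chr19:5740650-5740899, plus strand: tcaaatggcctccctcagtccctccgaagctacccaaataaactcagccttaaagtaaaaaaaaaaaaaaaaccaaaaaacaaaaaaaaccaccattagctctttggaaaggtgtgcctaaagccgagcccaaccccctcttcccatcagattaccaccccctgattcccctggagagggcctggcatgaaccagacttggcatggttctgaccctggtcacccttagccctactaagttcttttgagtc
Ltbp2, chr12:84876492-84876741, minus strand: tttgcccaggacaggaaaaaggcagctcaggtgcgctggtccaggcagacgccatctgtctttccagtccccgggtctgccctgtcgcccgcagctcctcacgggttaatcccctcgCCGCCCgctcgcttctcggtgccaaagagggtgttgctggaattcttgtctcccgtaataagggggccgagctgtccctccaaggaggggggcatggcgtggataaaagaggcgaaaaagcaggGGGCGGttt
Ltbp1, chr17:75005279-75005528, plus strand: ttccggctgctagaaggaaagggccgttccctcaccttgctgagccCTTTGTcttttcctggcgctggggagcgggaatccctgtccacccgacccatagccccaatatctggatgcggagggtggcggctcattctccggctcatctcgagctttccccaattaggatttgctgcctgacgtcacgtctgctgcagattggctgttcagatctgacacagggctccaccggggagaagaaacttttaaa
The Tgfb2 window held TATAAA starting 31 bases before the start, ACAAAG at 67 bases and CAGACA at 204 bases. ACAAAG also stood 204 bases before the shown start of Ltbp1. Before the other Ltbp1 start (chr17:75178531-75178780), ACAAAG stood at 101 bases, ACAATG at 74 bases and CAGACA at 149 and 98 bases. The Ltbp2 window held GGGCGG at 133 and at 9 bases, and the Ltbp3 window held none of the 8 strings. Of 32851 RefSeq windows of the same length, 16.5% held ACAAAG, 10.7% ACAATG, 17.1% CAGACA, 32.7% GGGCGG and 12.4% TATAAA. A match is a run of letters and not a shown binding site, and a window without one says nothing of a factor. RefSeq windows were matched for 8 of the 10 genes, in 12 entries.

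Among the ligands, Tgfb2 rose in the Sox2-labelled libraries. This gene on chromosome 1 (mm10, 186623186 to 186705992, minus strand) encodes the isoform that depends most on the coreceptor TGFBR3 for binding. Tgfb2 RNA was present at 33.2 and 30.3 FPKM in the Sox2-labelled libraries and 8.32 and 3.39 FPKM in the control-labelled pair. Both Sox2-labelled libraries were high and close to each other, and the groups did not overlap. The means were 31.8 ± 2.08 FPKM (SD, n = 2) and 5.85 ± 3.49 FPKM (SD, n = 2), 5.43-fold apart, and the log2 difference was 2.36 (SE 0.41, limma adjusted p = 0.00532). The fold was 9.38 without control-labelled replicate 1 and 3.82 without control-labelled replicate 2. Leaving out Sox2-labelled replicate 1 or 2 ended the call (limma adjusted p = 0.0516 and 0.0767). A non-coding antisense gene, Gm29491, shares 124 of the 5791 exon bases of Tgfb2 in GENCODE M21, and the strand setting of the authors' counting is not given in the sources used here.

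Tgfb1 and Tgfb3 did not pass. Tgfb1, the most widely expressed isoform (chromosome 7, 25687002 to 25704996, plus strand), stood at 24.5 and 18.3 FPKM in the Sox2-labelled libraries and at 13.2 and 10.7 FPKM in the control-labelled pair. The groups did not overlap, but the log2 difference of 0.78 (SE 0.34) had a limma adjusted p of 0.157. After median-of-ratios rescaling it was 1.11 with a limma adjusted p of 0.0265, and it passed under quantile normalization as well (1.09, limma adjusted p = 0.0253).

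Tgfb3, an isoform needed for lung and palate development (chromosome 12, 86056743 to 86079041, minus strand), stood at 12.9 and 9.28 FPKM in the Sox2-labelled libraries against 37.3 and 9.70 FPKM. Control-labelled replicate 1 stood apart and replicate 2 lay inside the range of the other group. The log2 difference of -0.76 (SE 0.52, limma adjusted p = 0.368) therefore rests on 1 library. It was 0.16 without control-labelled replicate 1 and -1.68 without control-labelled replicate 2. Ttll5 lies across Tgfb3 on the other strand and shares no exon base with it in GENCODE M21.

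Within a library the ligand RNAs stood in different proportions. These shares compare FPKM, which is per length, and do not depend on the scaling between libraries. Tgfb2 made up 47.0% and 52.4% of the summed FPKM of the 3 ligands in the Sox2-labelled libraries, and 14.1% and 14.2% in the control-labelled pair. Tgfb3 made up 18.3% and 16.1% against 63.4% and 40.7%. Neither share overlapped between the groups, whereas that of Tgfb1 did, at 34.6% and 31.6% against 22.4% and 45.1%. In other words Tgfb2 was the most abundant ligand RNA in both Sox2-labelled libraries, Tgfb3 in control-labelled replicate 1 and Tgfb1 in control-labelled replicate 2. The ratio of Tgfb2 to Tgfb3 was 2.57 and 3.26 against 0.223 and 0.349. These shares and ratios are given as descriptions and were not tested. Shares of the same sum are tied, so a higher Tgfb2 lowers the other shares, and the FPKM of Tgfb3 itself overlapped between the groups. An exact permutation test of 2 against 2 libraries has a smallest two-sided p of 0.333. The ligands summed to 70.6 and 57.8 FPKM in the Sox2-labelled libraries and to 58.8 and 23.8 FPKM in the control-labelled pair, with overlap.

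**Figure D2:**
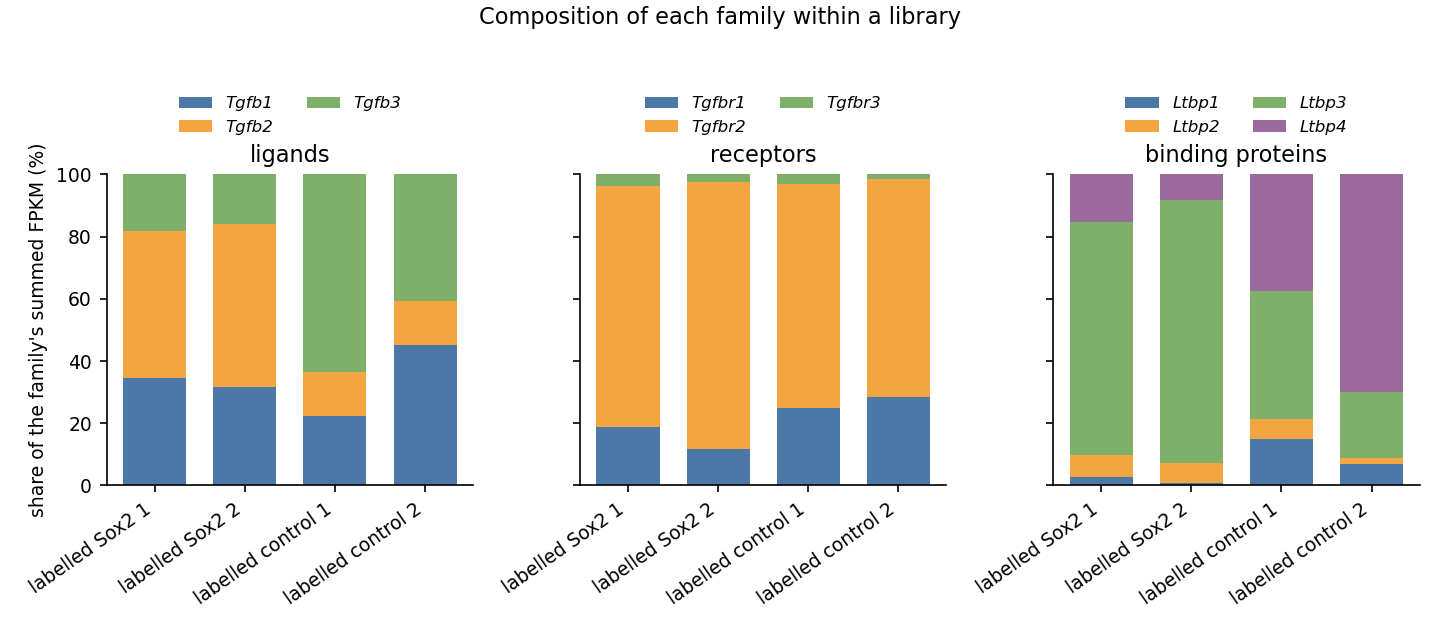
Share of each gene (%) in the summed FPKM of its family, stacked to 100% for each of the 4 libraries, in panels for the ligands, the receptors and the binding proteins. Tgfb2 takes 47.0% and 52.4% of the ligands in the Sox2-labelled libraries against 14.1% and 14.2%, and Ltbp3 takes 74.9% and 84.7% of the binding proteins against 41.3% and 21.3%.

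None of the receptors passed. Tgfbr2, the type II receptor that binds the ligand first (chromosome 9, 116087695 to 116175363, minus strand), was the most abundant receptor RNA in every library. It stood at 54.7 and 62.1 FPKM in the Sox2-labelled libraries and at 40.3 and 25.3 FPKM in the control-labelled pair, without overlap. Its log2 difference was 0.85 (SE 0.33, limma adjusted p = 0.118). It passed after median-of-ratios rescaling (1.19, limma adjusted p = 0.0469), under quantile normalization (1.14, 0.0424) and without control-labelled replicate 1 (1.17, 0.0362).

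Tgfbr1, the type I receptor kinase (chromosome 4, 47353305 to 47414924, plus strand), stood at 13.2 and 8.51 against 13.8 and 10.3 FPKM, and the groups overlapped. The log2 difference of -0.16 (SE 0.37, limma adjusted p = 0.824) turned to 0.17 after median-of-ratios rescaling and to 0.15 under quantile normalization, without passing in either. The ratio of Tgfbr2 to Tgfbr1 within a library was 4.14 and 7.30 in the Sox2-labelled libraries and 2.91 and 2.45 in the control-labelled pair.

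Tgfbr3, or betaglycan, the coreceptor that presents ligand to TGFBR2 (chromosome 5, 107106570 to 107289595, minus strand), had the lowest group mean of the 10 genes under both labels. It stood at 2.70 and 1.80 against 1.65 and 0.497 FPKM. The groups did not overlap, though Sox2-labelled replicate 2 and control-labelled replicate 1 had deposited bounds that did (1.52 to 2.09 and 1.45 to 1.85 FPKM). The log2 difference was 0.69 (SE 0.43, limma adjusted p = 0.308). On the FPKM as deposited, no receptor passed in limma with all 4 libraries. By unadjusted p in limma, 1 of the 3 was under 0.05, Tgfbr2 at 0.0278, against 29.6% of all tested genes in either direction.

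The binding proteins moved in both directions. Ltbp3, which binds latent complexes of all isoforms and is known from skeletal and lung phenotypes of its loss, rose (chromosome 19, 5740904 to 5758532, plus strand). It stood at 110 and 124 FPKM in the Sox2-labelled libraries and at 26.0 and 24.4 FPKM in the control-labelled pair. Each pair of libraries was tight and the groups lay far apart. The means were 117 ± 9.84 FPKM (SD, n = 2) and 25.2 ± 1.12 FPKM (SD, n = 2), 4.64-fold apart, and the log2 difference was 2.17 (SE 0.30, limma adjusted p = 0.00175). Leaving out any 1 library gave folds of 4.36 to 4.91 and limma adjusted p of at most 0.0352. Of all tested genes, 1.71% kept their call and sign in all 4 fits that leave out a library, and Ltbp3 was the only one of the 10 genes to do so.

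Ltbp2, the family member that associates with elastic fibres and does not bind latent TGF-beta, rose as well (chromosome 12, 84783212 to 84876495, minus strand). It stood at 10.7 and 9.15 FPKM in the Sox2-labelled libraries and at 4.00 and 2.08 FPKM in the control-labelled pair, without overlap. The means were 9.93 ± 1.11 FPKM (SD, n = 2) and 3.04 ± 1.36 FPKM (SD, n = 2), 3.27-fold apart, and the log2 difference was 1.47 (SE 0.40, limma adjusted p = 0.038). Leaving out either Sox2-labelled library ended the call (limma adjusted p = 0.2 and 0.244), as did leaving out control-labelled replicate 2 (0.191) or filtering at a mean of 5 FPKM (0.0551). The antisense gene D030025P21Rik shares 764 of the 8184 exon bases of Ltbp2 in GENCODE M21. It stood at 1.51 and 2.16 against 0.672 and 0.387 FPKM, and reads from the 2 genes cannot be told apart in the shared bases if strand was not used.

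Ltbp1, which binds latent complexes of all isoforms and anchors them to fibronectin and fibrillin, fell in the Sox2-labelled libraries (chromosome 17, 75005529 to 75392967, plus strand). It stood at 3.74 and 1.23 against 9.32 and 8.01 FPKM. The control-labelled libraries were close to each other and both above the other group. The means were 2.48 ± 1.78 FPKM (SD, n = 2) and 8.67 ± 0.932 FPKM (SD, n = 2), 3.49-fold apart, and the log2 difference was -1.57 (SE 0.45, limma adjusted p = 0.0434). The fold was 7.07 without Sox2-labelled replicate 1 and 2.32 without Sox2-labelled replicate 2. The call was lost in both cases (limma adjusted p = 0.0599 and 0.438), without control-labelled replicate 1 (0.0652) with a filter at 5 FPKM (0.0732), and after median-of-ratios rescaling (log2 difference -1.31, 0.0501).

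Ltbp4, which binds latent TGF-beta 1 weakly and is needed for elastic fibres of the lung, did not pass (chromosome 7, 27305141 to 27337612, minus strand). It stood at 22.4 and 11.9 FPKM in the Sox2-labelled libraries and at 23.6 and 79.9 FPKM in the control-labelled pair. Control-labelled replicate 2 stood far above the other 3 libraries, and replicate 1 lay just above Sox2-labelled replicate 1. The log2 difference was -1.36 (SE 0.52, limma adjusted p = 0.107). It was -2.22 without control-labelled replicate 1 and -0.50 without control-labelled replicate 2. On rescaled values the groups overlapped.

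As shares of the summed FPKM of the 4 binding proteins, Ltbp3 held 74.9% and 84.7% in the Sox2-labelled libraries and 41.3% and 21.3% in the control-labelled pair. Ltbp4 held 15.3% and 8.15% against 37.5% and 69.9%, and Ltbp1 held 2.55% and 0.839% against 14.8% and 7.0%. These 3 shares did not overlap between the groups, whereas that of Ltbp2 did, at 7.31% and 6.27% against 6.37% and 1.82%. Like those of the ligands, these shares are tied, so a higher Ltbp3 lowers the others. The family summed to 147 and 146 FPKM in the Sox2-labelled libraries and to 62.8 and 114 FPKM in the control-labelled pair. The ratio of Ltbp3 to Ltbp1 was 29.3 and 101 against 2.78 and 3.05, a gap in which the low Ltbp1 value of Sox2-labelled replicate 2 (deposited bounds 1.01 to 1.44 FPKM) weighs heavily.

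**Figure D3:**
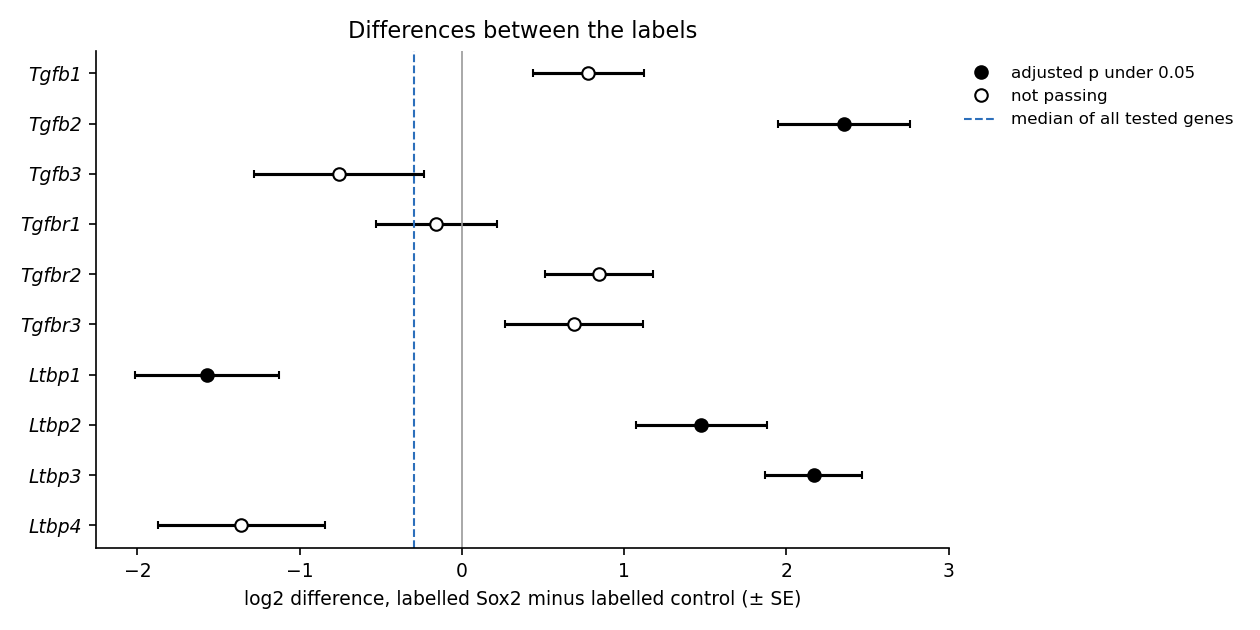
Log2 difference in FPKM + 1, labelled Sox2 minus labelled control, for the 10 genes with SE as bars. Filled points mark an adjusted p under 0.05 in limma, and the dashed line is the median of all tested genes at -0.29. Tgfb2 (2.36) and Ltbp3 (2.17) lie farthest to the right and Ltbp1 (-1.57) farthest to the left.

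Ordered by mean level in the Sox2-labelled libraries, Ltbp3 led at 117 FPKM, followed by Tgfbr2 at 58.4 FPKM and Tgfb2 at 31.8 FPKM, each with a range apart from the next. Tgfb1, Ltbp4, Tgfb3, Tgfbr1 and Ltbp2 followed at 21.4 down to 9.93 FPKM, each overlapping its neighbour. Ltbp1 at 2.48 FPKM and Tgfbr3 at 2.25 FPKM came last and overlapped. In the control-labelled libraries the order was Ltbp4 at 51.7 FPKM, Tgfbr2 at 32.8, Ltbp3 at 25.2, Tgfb3 at 23.5, Tgfbr1 at 12.1, Tgfb1 at 12.0, Ltbp1 at 8.67, Tgfb2 at 5.85, Ltbp2 at 3.04 and Tgfbr3 at 1.07 FPKM. Only Tgfb1 from Ltbp1 and Ltbp2 from Tgfbr3 were separate neighbours there. Thus Tgfb2 was the third of the 10 in the Sox2-labelled libraries and the eighth in the control-labelled ones.

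**Figure D4:**
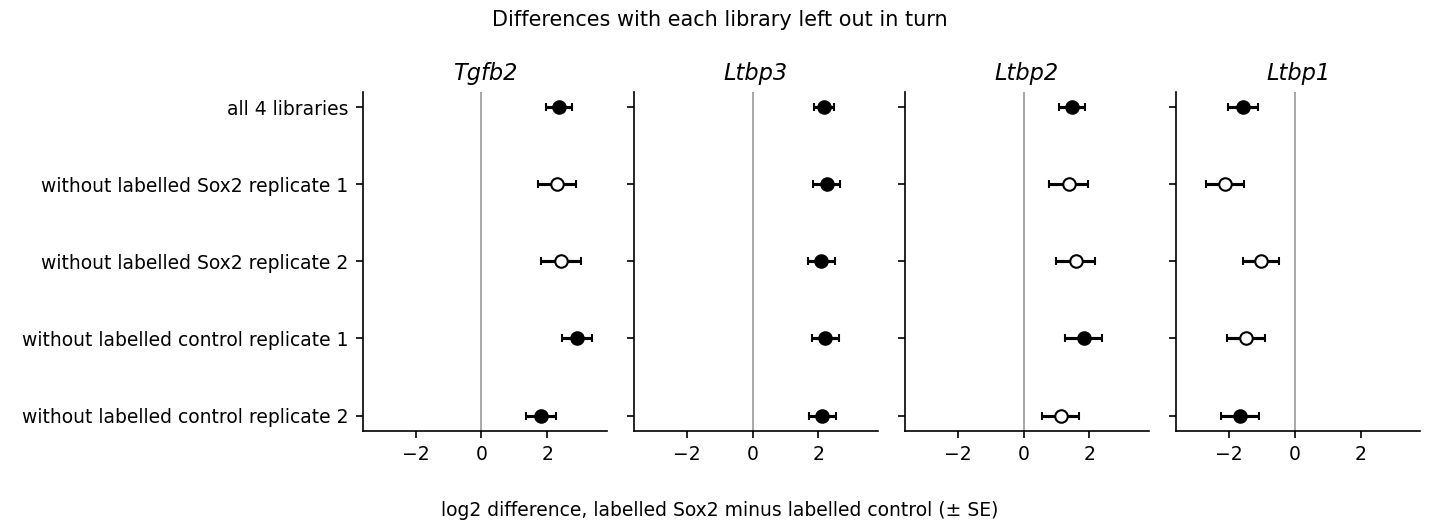
Log2 difference, labelled Sox2 minus labelled control, with SE as bars, for the 4 genes that passed, using all 4 libraries and with each library left out in turn. Filled points mark an adjusted p under 0.05 in limma. Ltbp3 stays filled in all rows, between 2.08 and 2.25 with a library left out, while Tgfb2, Ltbp2 and Ltbp1 keep their sign but are open in 2 or more rows.

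Other genes of the pathway were read from 4 lists, 58 distinct tested genes in all. Of 15 tested genes for activation and matrix anchoring of latent TGF-beta, 3 rose in the Sox2-labelled libraries, 1 fell and 11 did not pass. Over all tested genes 4.2% rose and 8.11% fell, so 1 lower gene of 15 lies near the background. The list's median log2 difference was 0.41, against -0.29 for all tested genes. Itgb6, the partner of the alpha v chain in an epithelial integrin that activates latent TGF-beta, stood at 73.0 and 77.2 FPKM in the Sox2-labelled libraries and at 18.9 and 8.54 FPKM in the control-labelled pair. Its log2 difference was 2.47 (SE 0.38, limma adjusted p = 0.00315). The fold was 5.48, and it was 8.80 without control-labelled replicate 1 and 3.97 without control-labelled replicate 2. Itgb8, whose integrin also activates latent TGF-beta, went the other way, at 0.0306 and 0.0666 against 2.66 and 5.11 FPKM (log2 difference -2.17, SE 0.41, limma adjusted p = 0.0078). The ratio of its group means was 79.9, and it was 127 without Sox2-labelled replicate 2 and 54.7 without control-labelled replicate 2. At such low levels the added 1 FPKM weighs on the log2 difference, which was -4.68 with a pseudocount of 0.1, where that of Tgm2 was 4.24. So the beta chains of both activating integrins differed between the labels in opposite directions, while Itgav, their shared alpha chain, stood at 22 and 16.7 against 31.0 and 15.3 FPKM and did not pass, a gene chosen after its values were seen.

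Tgm2, a transglutaminase that crosslinks LTBP1 into the matrix among other substrates, stood at 52.5 and 41.5 against 5.55 and 0.992 FPKM (log2 difference 3.72, limma adjusted p = 0.00154). Its fold was 14.4 with all libraries, 47.4 without control-labelled replicate 1 and 8.48 without control-labelled replicate 2. Bmp1, a procollagen protease that also cleaves LTBP1, stood at 69.8 and 60.2 against 21 and 12.2 FPKM (log2 difference 1.95, limma adjusted p = 0.00611). Itgb6 and Tgm2 kept their calls with any 1 library left out, whereas Bmp1 and Itgb8 lost theirs without either library labelled Sox2 (limma adjusted p = 0.0524 to 0.0871).

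Of 18 tested genes of SMAD signalling and its regulators, 1 rose, 1 fell and 16 did not pass, with a median log2 difference of 0.04. Among all tested genes 4.2% rose and 8.11% fell, so 1 of 18 each way lies near the background. Smad7, an inhibitor that the pathway itself induces, stood at 42.7 and 41.1 FPKM in the Sox2-labelled libraries and at 18.8 and 17.8 FPKM in the control-labelled pair (log2 difference 1.15, SE 0.31, limma adjusted p = 0.036). Fkbp1a, an immunophilin that binds the inactive type I receptor, stood at 108 and 72.0 against 261 and 193 FPKM (log2 difference -1.34, SE 0.33, limma adjusted p = 0.0263). Smad7 lost its call in a model with no variance trend (limma adjusted p = 0.0594), as did Cdkn2b of the list described next (0.062). The call of Smad7 was lost without Sox2-labelled replicate 1 (limma adjusted p = 0.155), Sox2-labelled replicate 2 (0.235) or control-labelled replicate 2 (0.0637), and that of Fkbp1a without Sox2-labelled replicate 2 (0.234). Median-of-ratios rescaling gave 4 higher genes and 1 lower in this list, against 8.01% and 5.7% of all tested genes.

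Of 20 tested genes known to respond to TGF-beta, 3 rose, 1 fell and 16 did not pass, with a median log2 difference of 0.78. Besides Smad7, which this list shares, Snai1, a repressor of epithelial adhesion genes, stood at 10.2 and 7.53 against 2.33 and 0.710 FPKM (log2 difference 2.03, limma adjusted p = 0.0145). Cdkn2b, a cell cycle inhibitor, stood at 84.9 and 131 against 45.1 and 44.2 FPKM (1.22, 0.0335). Igfbp3, a binding protein of insulin-like growth factors, stood at 1.41 and 0.458 against 3.32 and 14.2 FPKM (-2.11, 0.0354). Each of the calls of Snai1, Cdkn2b and Igfbp3 was lost without Sox2-labelled replicate 1 (limma adjusted p = 0.0513 to 0.115) and without Sox2-labelled replicate 2 (0.107 to 0.317). Those of Snai1 and Igfbp3 were lost without control-labelled replicate 2 as well (0.0562 and 0.0538), and that of Igfbp3 under median-of-ratios rescaling (0.106) and quantile normalization (0.101). The fold of Snai1 was 5.82 with all libraries and 12.5 and 3.8 without control-labelled replicate 1 or 2. That of Igfbp3 was 9.40, and 15.2 and 3.56, or 19.1 and 6.23 without Sox2-labelled replicate 1 or 2. Ctgf, another response gene, stood at 338 and 314 against 697 and 550 FPKM and did not pass, a gene chosen after its values were seen. Median-of-ratios rescaling gave 7 higher genes and 0 lower in this list. Over all tested genes the same rescaling moved higher calls from 4.2% to 8.01% and lower calls from 8.11% to 5.7%.

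Among 9 tested further receptors and coreceptors of the TGF-beta family, none passed in limma, and the median log2 difference was 0.14. An unadjusted p under 0.05 in limma was reached by 1 gene, against 29.6% of all tested genes. Median-of-ratios rescaling gave 1 higher gene in this list, against 8.01% of all tested genes. Its most abundant members were the BMP receptors Bmpr1a, at 22.2 and 22.6 against 24.1 and 17.0 FPKM, and Bmpr2, at 16.5 and 15.1 against 17.5 and 13.6 FPKM. Both overlapped between the groups.

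**Figure D5:**
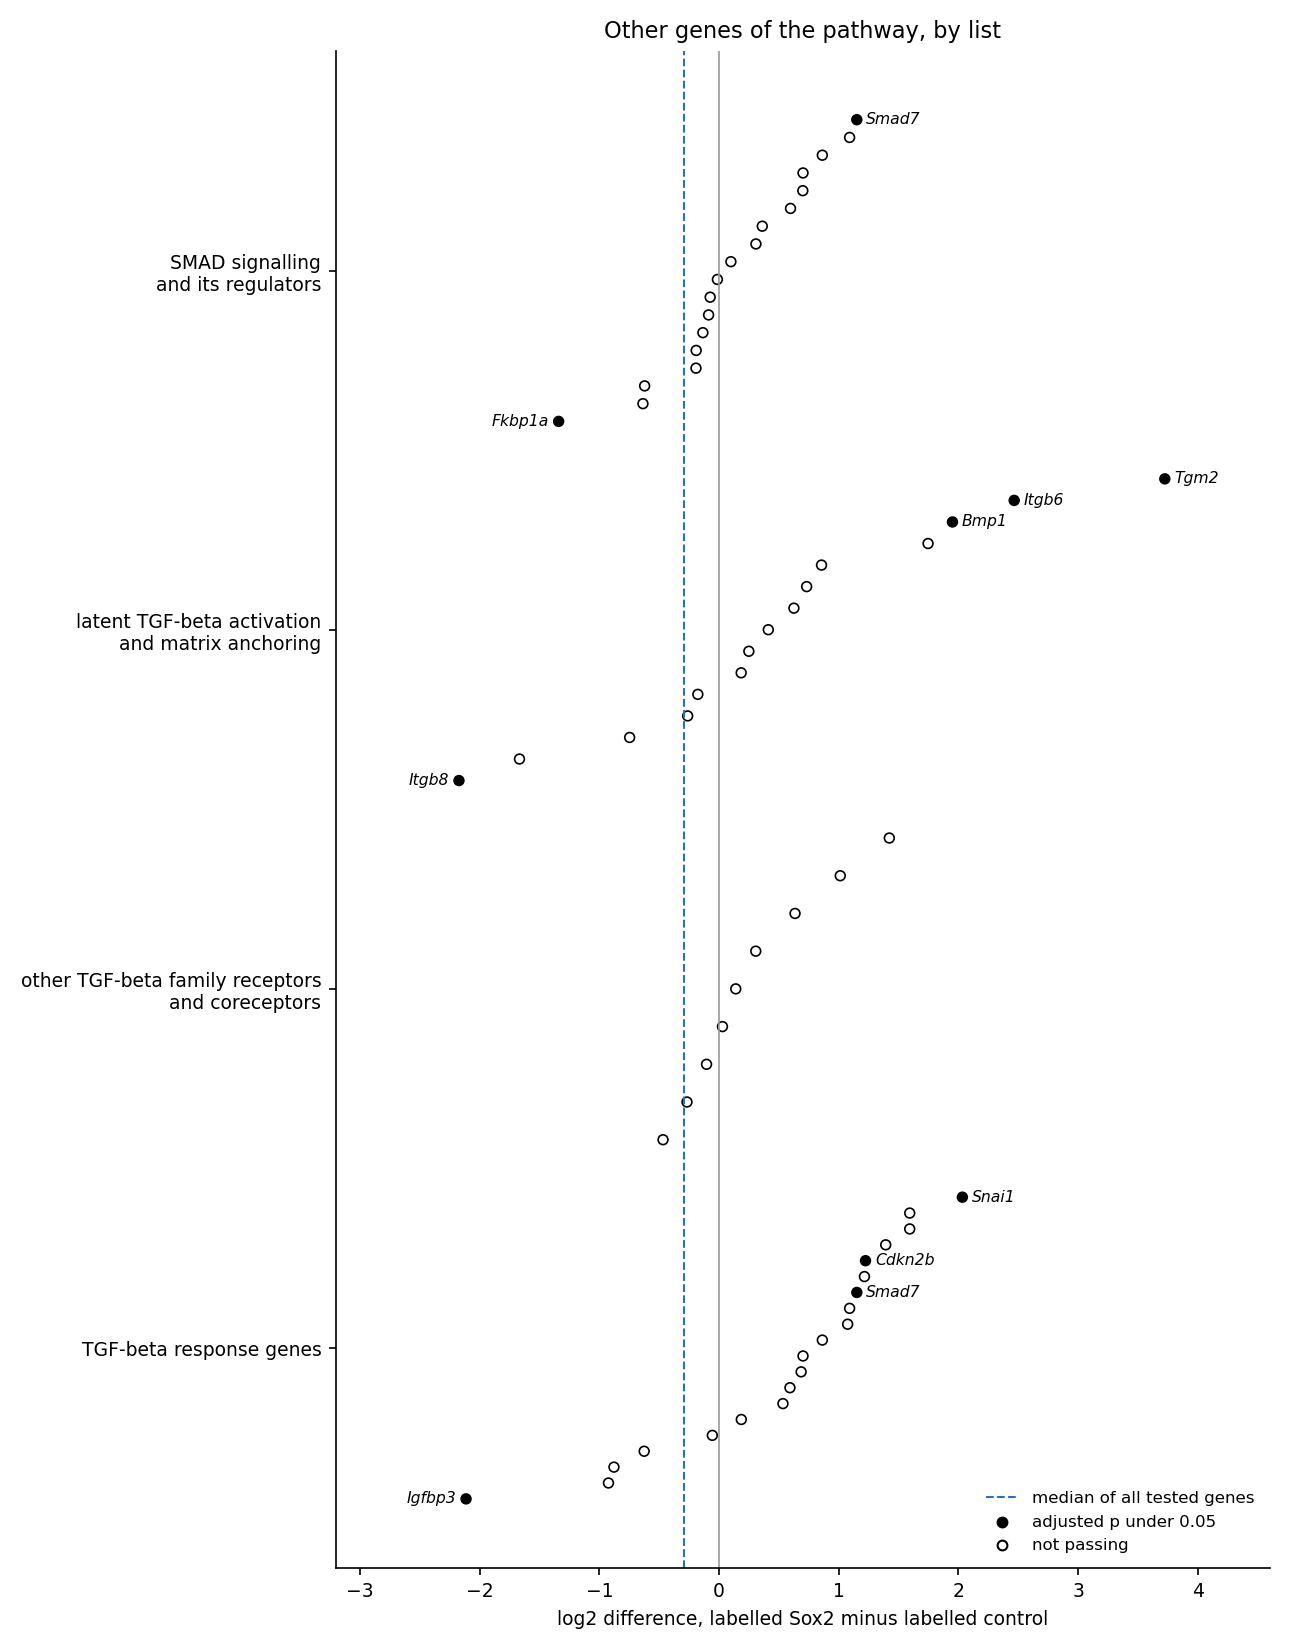
Log2 difference, labelled Sox2 minus labelled control, of every tested gene of the 4 pathway lists, 1 point a gene, with genes past an adjusted p of 0.05 in limma filled and named. The dashed line is the median of all tested genes at -0.29. The called genes lie on both sides, from Tgm2 at 3.72 to Itgb8 at -2.17 in the list of activation and matrix anchoring, and the list of further receptors holds open points only.

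Several of these genes are also made by other lung cells, so the markers of those cells are given beside them. The 11 mesenchymal markers in the tables summed to 414 and 218 FPKM in the Sox2-labelled libraries and to 194 and 66.6 FPKM in the control-labelled pair, and 1 of 9 tested was called higher. Most of that sum came from Eln, at 142 and 127 against 72.0 and 37.0 FPKM, and from collagens, while Lum did not exceed 0.172 FPKM in any library. The 9 endothelial markers summed to 200.0 and 140 against 54.0 and 22.7 FPKM, with 3 of 9 called higher. Esam held much of that sum, at 63.3 and 74.5 against 8.44 and 2.54 FPKM. The 9 leukocyte markers summed to 104 and 49.8 against 46.1 and 21.4 FPKM, with 1 of 8 called higher. Csf1r stood at 27.7 and 25.2 against 3.02 and 1.03 FPKM. Cd3e and Cd79a did not overlap either, whereas Ptprc, Cd68, Cd52, Laptm5, Tyrobp and Fcer1g each overlapped between the groups. Over all tested genes 4.2% were called higher and 8.11% lower, the shares to set beside the marker counts. The 6 smooth muscle markers summed to 76.0 and 35.2 against 36.2 and 9.88 FPKM, with 1 of 5. The 10 AT1 markers summed to 6498 and 7515 against 1314 and 815 FPKM, with 9 of 10 called higher, and the 8 AT2 markers to 24838 and 17197 against 5884 and 937 FPKM, with 8 of 8. The 7 basal cell markers summed to 2.37 and 1.70 against 45.7 and 167 FPKM. Dapl1 made up most of the control-labelled sums, at 0.234 and 0 against 41.6 and 150 FPKM. Trp63 and Dapl1, 2 of the 3 tested, were called lower. Krt5 and Krt17 were listed at 0 in both Sox2-labelled libraries and at up to 0.686 and 0.434 FPKM in the control-labelled pair. Krt15 went the other way, at 1.75 and 1.60 against 1.46 and 1.43 FPKM, and Krt14 and Ngfr overlapped. The 5 mesothelial markers summed to 319 and 361 against 641 and 972 FPKM, with 1 of 3 tested called lower. Krt19, a keratin that airway cells make as well, made up most of that sum, at 226 and 273 against 602 and 910 FPKM. Msln stood the other way, at 87.6 and 87.5 against 35.1 and 62.7 FPKM, and Wt1 at no more than 0.184 FPKM. The platelet and erythroid sum was 167 and 834 against 59.0 and 237 FPKM, mostly haemoglobin. Some markers, among them Col1a1, Col3a1, Acta2, Tagln and Fbn1, are on the pathway lists too. The part of these cell types in the differences of the 10 genes was not tested.

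For the 3 genes with the largest absolute differences, the tested genes with the nearest pattern over the 4 libraries were found by Euclidean distance of log2(FPKM + 1) centred on each gene's mean. Nearest to Tgfb2 were the collagen prolyl hydroxylase subunit P4ha3 (distance 0.128), the channel kinase Trpm6 (0.135) and Sec14l4 (0.168). Nearest to Ltbp3 were the uronyl sulfotransferase Ust (0.121), the metalloproteinase Mmp23 (0.122) and Pdzd2 (0.162), and nearest to Ltbp1 were Pdlim7 (0.169), Fam171a1 (0.169) and Tlr2 (0.173). P4ha3 stood at 19.1 and 19.6 against 5.04 and 1.73 FPKM, and Mmp23 at 24.9 and 28.4 against 6.01 and 5.08 FPKM. With 4 libraries in 2 groups this likeness describes little more than the difference between the labels and the spread of 2 pairs.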

How the data were processed

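RNA-seq libraries of sorted AT1 cells, 2 labelled Sox2 and 2 labelled control by their titles, were analysed from 1 table per library. Per the file headers, the deposited unit is FPKM, each value with bounds on both sides and without read counts. TopHat2, Bowtie2, Cufflinks and Cuffdiff with the mouse build mm10 are named in the submitters' processing notes, and no source used here gives their versions, annotation or strand setting. A table of group values was not used, since no label ties its columns to a group.

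Entries of 1 symbol were added (267 symbols), and 1 symbol marked as failed in a library was left out, which left 23990 genes. Those averaging 1 FPKM or more, 12040 genes, entered limma 3.58.1 (R 4.3.3; lmFit, eBayes with trend) as log2(FPKM + 1). P-values are two-sided and Benjamini-Hochberg adjusted over these genes, with a threshold of 0.05. The fit leaves 2 residual degrees of freedom, so through eBayes the spread of each gene is drawn in part from all tested genes. The scale understates changes of low genes. A fit without 1 library leaves 1 sample in a group. Its spread then comes from the other group and, through eBayes, from all tested genes. The p-values and calls of these fits therefore hold no spread of that group.

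Named are the 10 genes, Sox2, up to 4 passing genes of each pathway list with the largest difference or else the 2 most abundant, and the 3 nearest genes by pattern. Members and lists were chosen with earlier results of these data known. Alternatives were a pseudocount of 0.1, leaving each library out, the replicate block, quantile or median-of-ratios scaling, a minimum mean of 5 FPKM or none, and a variance model that is robust or has no trend. Starts listed in the tables were raised by 1 to count from 1. A gene fixed in the list of response genes is not reported here, and the list's counts are without it.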

Additional observations from a re-analysis of the deposited data

How the results depend on the processing

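The count of higher genes among the 10 was 5 under median-of-ratios rescaling and under quantile normalization, and 0 with no filter on low values. It ranged from 1 to 4 with 1 library left out. The count of lower genes among them was 0 at a minimum mean of 5 FPKM, under median-of-ratios rescaling and with no filter, and ranged from 0 to 2 with 1 library left out. With no filter, 5 of the 10 were higher and 1 lower at an unadjusted p under 0.05 in limma. At the minimum mean of 5 FPKM, where 9 of the 10 were tested, these numbers were 5 and 2. All 8065 genes tested there gave 678 and 1915. Under median-of-ratios rescaling the 10 gave 6 and 1, and all 12040 tested genes gave 1925 and 1827. In both settings the lower counts among the 10 did not exceed the share over all tested genes. Over all tested genes, higher calls numbered 964 under median-of-ratios rescaling, 980 under quantile normalization and 0 with no filter, and 119 to 837 with 1 library left out, against 506. Lower calls numbered 3 with no filter and 115 to 1312 with 1 library left out, against 976. With no filter, 1251 of 18390 tested genes were higher and 2618 lower at an unadjusted p under 0.05 in limma. The cause was not tested.

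With the replicate block, 1142 genes were called higher and 2730 lower, and 4 of the 10 genes higher and 1 lower, Tgfb1 being the one added (limma adjusted p = 0.0351). The libraries share only a number: no label says that it marks a litter or a day, and the deviations of same-numbered libraries correlated at 0.234 across genes.

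Some differences changed sign, without passing on the reversed side. That of Tgfbr1 became 0.17 under median-of-ratios rescaling and 0.15 under quantile normalization, and with single libraries left out it ran from -0.45 to 0.13, being 0.04 in absence of control-labelled replicate 1. With single libraries left out, that of Tgfb3 ran from -1.68 to 0.16, that of Bmpr1a from -0.10 to 0.38, and that of Bmpr2 from -0.14 to 0.20, being -0.03 in absence of Sox2-labelled replicate 1. Of 249 refitted differences of the 10 genes and the named pathway genes, 189 kept their sign and side of the threshold, 44 no longer passed, 8 newly passed and 8 changed sign. Depth is unknown for these tables, so low values such as those of Itgb8 and Tgfbr3 have no counting interval beyond the deposited bounds.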
